A study of Homo sapiens with 8 samples.

Results

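Cyclins, the cyclin-dependent kinases (CDKs) that they switch on, the CDK inhibitors, the retinoblastoma (RB) proteins and the E2F transcription factors were compared between SKBR3 cells with and without knockdown of FOXA1. Genes were chosen by symbol: cyclins A to L, O, T1, T2 and Y, numbered CDKs, members of the CDKN1, CDKN2 and CDKN3 groups, RB1, RBL1, RBL2 and E2F1 to E2F8. The rule found 65 of the 30434 genes in the count table. No expression value entered it, but it was set with earlier results of these data known. SKBR3 is a human breast cancer line with amplified ERBB2 (HER2), and FOXA1 is a forkhead transcription factor of luminal breast cells. The series held 8 RNA-seq libraries of paired reads of 101 bases. The 4 control libraries came from SKBR3 cells whose genotype is labelled WT, and the 4 knockdown libraries from SKBR3 cells labelled FOXA1 knockdown. The knockdown cells were a stable line made with lentiviruses that carried 3 separate shRNAs against FOXA1. All cells of both groups grew in DMEM with GlutaMAX-1, 10% fetal bovine serum and antibiotics. The labels do not say whether the controls carried a vector, whether the knockdown line was a clone or a pool, or whether replicates were separate cultures. The p-values therefore measure only the spread between these libraries, which may be technical.

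Cells pass from G1 into DNA replication when D-type cyclins with CDK4 or CDK6, and then E-type cyclins with CDK2, phosphorylate the RB proteins and release E2F factors from them. The INK4 inhibitors (CDKN2A to CDKN2D) bind CDK4 and CDK6, while the CIP/KIP inhibitors (CDKN1A to CDKN1C) bind cyclin-CDK complexes more broadly. Cyclin A with CDK2, and cyclins A and B with CDK1, drive DNA replication and mitosis. A separate branch of the family, among them CDK7, CDK8, CDK9, CDK12 and CDK13, acts on transcription by RNA polymerase II. In luminal breast cancer the D1-CDK4/6-RB step is the target of approved kinase inhibitors.

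Library totals were 21838121 to 23786684 counts in control and 19087878 to 23503753 in knockdown. FOXA1 itself fell from 192 ± 1.65 to 3.96 ± 0.34 CPM (CPM is the count divided by the scaled library total and multiplied by 1000000; mean ± SD, n = 4 per group), a log2 fold change of -5.60. All 7 SKBR3 and luminal markers were expressed, 3 of them higher (KRT8, KRT18, EPCAM) and 4 lower (ERBB2, GRB7, KRT7, KRT19) in knockdown, and their summed level was 18640 to 20755 CPM in control and 11609 to 12505 CPM in knockdown. Markers of other cell types were low in sum, though single ones moved. The sum was 5.27 to 6.98 CPM in control and 10.8 to 11.96 CPM in knockdown for 6 fibroblast genes, with COL1A2, DCN and PDGFRA at 3 or fewer counts in every library but COL3A1 going from 0.0222 ± 0.0257 to 4.32 ± 0.193 CPM and PDGFRB from 0.41 ± 0.11 to 2.83 ± 0.476 CPM. White blood cell markers summed to 1.14 to 1.77 and 1.34 to 1.80 CPM with PTPRC at 3 or fewer counts, and endothelial markers to 20.7 to 22.1 and 19.7 to 22.4 CPM, within which CDH5 rose (0.32) and VWF fell (-2.62). Basal markers summed to 2.24 to 2.99 and 8.80 to 10.2 CPM, with TP63 going from 0.147 ± 0.0429 to 7.86 ± 0.552 CPM and ACTA2 from 1.33 ± 0.264 to 0.0674 ± 0.0252 CPM. The part of these marker shifts in the results below was not tested. Control replicate 3 differed most from its group, with a chi-square per degree of freedom of 4.70 to 6.05 over genes in its 3 pairs against 2.13 to 2.34 in the other 3 control pairs. Calls of the chosen genes that changed when it was left out are named below with the value without it.

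Of the 65 genes, 60 had enough counts to be tested. The edgeR quasi-likelihood test was used, with p-values adjusted by the Benjamini-Hochberg method across the 16430 tested genes and a threshold of 0.05. In the knockdown 26 rose, 23 fell and 11 did not pass, so that 81.7% of the tested genes changed, beside 77.1% of all genes tested. The split was 43.3% higher and 38.3% lower, against 39.4% and 37.7% of all genes. The median log2 fold change was -0.04 in the family and 0.02 over all genes. A change of at least 2-fold was called for 18 of the 60 (30.0%, against 28.3% of all genes), 10 higher (14.9% of all genes) and 8 lower (13.4% of all genes). The 4 control and 4 knockdown values did not overlap for 47 of the 60, a share of 78.3% beside 72% of all genes. Without overlap the exact two-sided permutation p is always 0.0286, the smallest that 4 against 4 libraries can give. For these 47 it therefore adds nothing to the lack of overlap. The family as a whole thus changed about as often as any gene in these libraries, and the description that follows is by role.

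**Figure D1:**
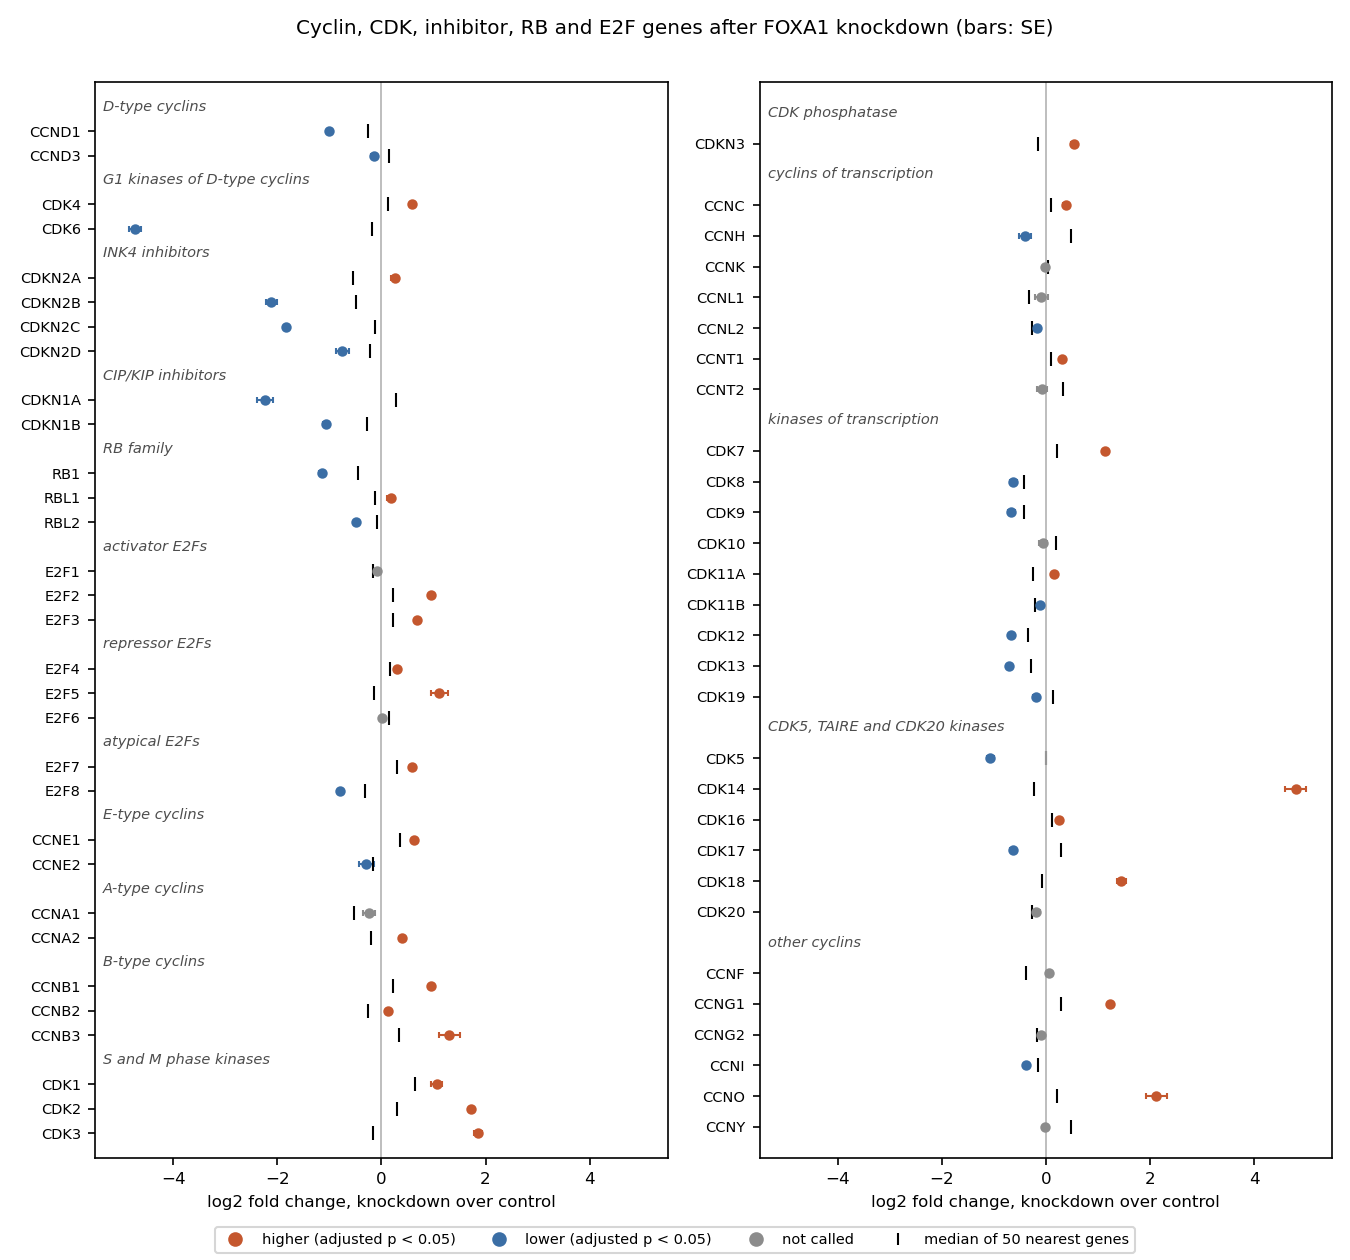
Log2 fold change (FOXA1 knockdown over control, x axis) of each of the 60 tested genes, grouped by role on the y axis; horizontal bars are 1 standard error from the spread of 4 libraries per group, and black marks are the median of the 50 nearest tested genes. CDK6 at -4.75 and CDK14 at 4.80 are the lowest and highest points, and all inhibitors that bind CDKs lie below 0 except CDKN2A.

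The G1 step changed in composition. CCND1 and CDK6 fell, CDK4 rose, and 5 of the 6 tested INK4 and CIP/KIP inhibitors fell (37.7% of all genes did). CDK6, a partner kinase of the D-type cyclins, had 67.3, 68.4, 64.6 and 68.8 CPM in control libraries 1 to 4 and 2.59, 2.91, 1.99 and 2.41 CPM in knockdown libraries 1 to 4, and library values are given in this order throughout. Every knockdown library lay far below every control library, at 3.68% of the control mean, with 39 to 1596 counts over the 8 libraries. The log2 fold change was -4.75 (SE 0.116, adjusted p = 3.41e-26), the largest fall in the family. In bulk RNA, fewer cells with a transcript and less of it per cell cannot be told apart, here and in all results below. CDK6 lies at chr7:92604921-92836594 on the minus strand (GENCODE 29 on GRCh38, as are all gene positions here). The median log2 fold change of its 50 nearest tested genes was -0.19.

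CDK4, the other D-cyclin kinase, moved the opposite way. Its level was 118, 114, 119 and 117 CPM in control and 171, 169, 185 and 178 CPM in knockdown, with no overlap and a log2 fold change of 0.59 (SE 0.0346, adjusted p = 2.17e-13). CDK4 shares 1369 bases of exon with TSPAN31 on the opposite strand, and use of strand in the counting is not given in the sources used here. Per kilobase of annotated exon, CDK6 made up 13.0% ± 0.512 of the CDK4 and CDK6 level in control and 0.364% ± 0.0709 in knockdown (SD, n = 4). The sum of both per kilobase was 1.31 times the control level in knockdown.

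CCND1, cyclin D1, was the most abundant D-type cyclin per kilobase in both groups. It had 455, 448, 458 and 448 CPM in control and 226, 226, 217 and 233 CPM in knockdown, so each knockdown library held about the same reduced level (49.9% of control on average). The log2 fold change was -1.003 (SE 0.0223, adjusted p = 1.55e-19), and -0.74 relative to its neighbours. The gene lies at chr11:69641087-69654474 and shares 497 bases of exon with LTO1 on the opposite strand. CCND3, cyclin D3, had 96.1, 91.2, 105 and 91.01 CPM in control and 85.99, 89.5, 82.6 and 89.7 CPM in knockdown. Its groups did not overlap, but the gap was narrow: the log2 fold change of -0.14 (SE 0.0553, adjusted p = 0.00789) became -0.08 (adjusted p = 0.127) with upper-quartile scaling and -0.05 (adjusted p = 0.272) with scaling by library size only, and -0.28 relative to its 50 nearest tested genes (their median taken as an offset in the fit). This median was treated as exact, so adjusted p-values given relative to neighbours, here and below, leave out its error. CCND2, cyclin D2, had 0 counts in every control library and 1 to 5 counts in the knockdown libraries, too few to test. As a share of the D-type cyclins per kilobase, CCND3 went from 14.97% ± 0.719 to 24.3% ± 0.326, while the summed level of all 3 in knockdown was 0.560 times that in control.

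**Figure D2:**
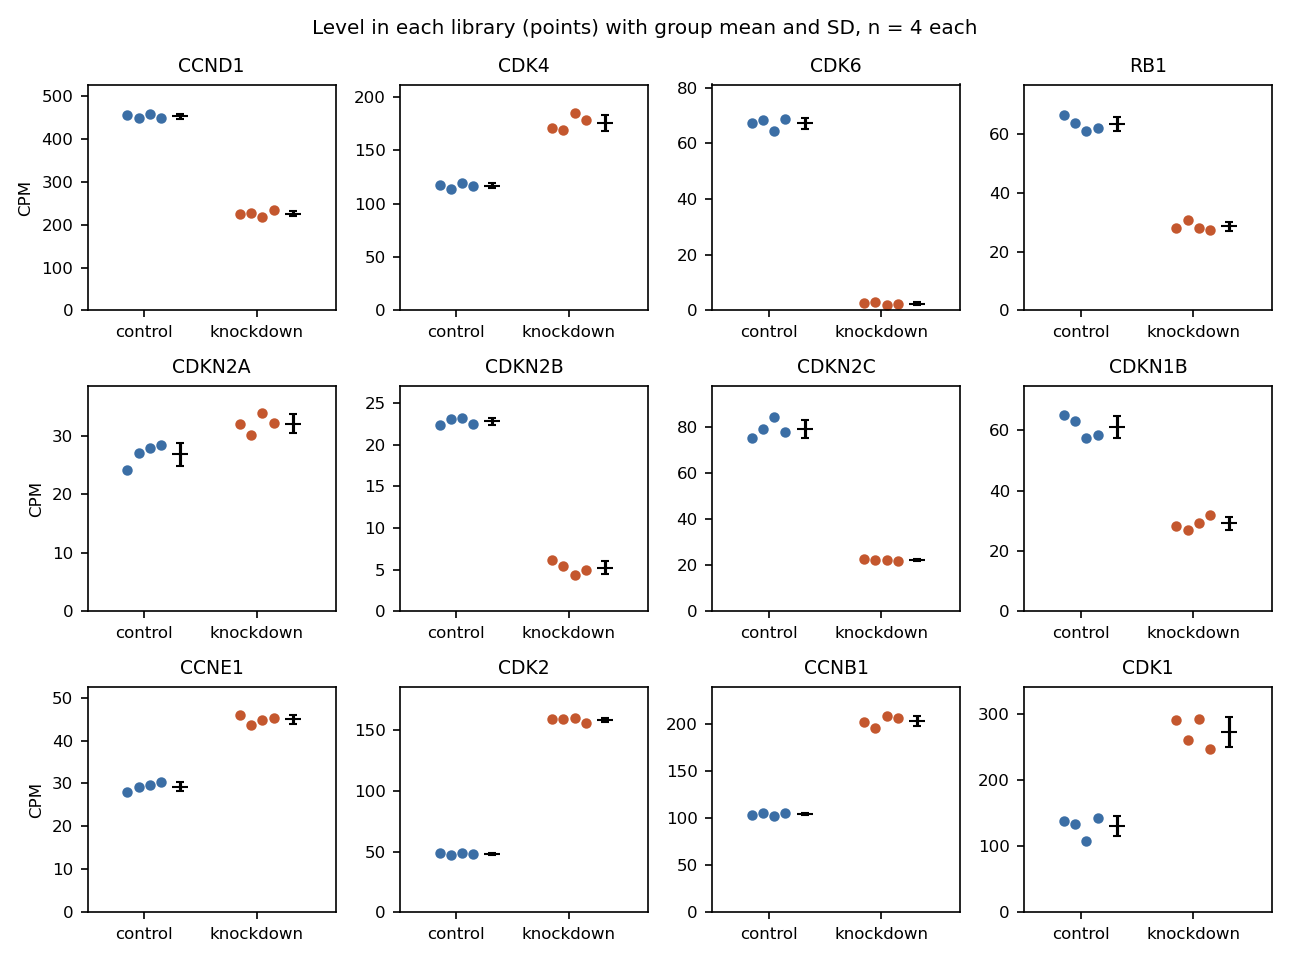
CPM (y axis, from 0) of 12 genes in each of the 4 control and 4 FOXA1 knockdown libraries (points), with the group mean and SD (n = 4) beside them. CDK6 falls from 64.6 to 68.8 CPM to below 3 CPM, while CDK2 rises from 47.5 to 49.2 CPM to 156 to 160 CPM.

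Among the INK4 inhibitors, 3 fell (37.7% of all genes did) and 1 rose (39.4% of all genes). CDKN2B (p15) had 22.4, 23.1, 23.2 and 22.5 CPM in control and 6.12, 5.49, 4.33 and 4.95 CPM in knockdown, a log2 fold change of -2.11 (SE 0.107, adjusted p = 6.3e-18). CDKN2C (p18), the INK4 gene with the highest level per kilobase in control, had 75.01, 79.1, 84.3 and 77.7 CPM there and 22.6, 22.4, 22.2 and 21.7 CPM in knockdown (log2 fold change -1.83, SE 0.0377, adjusted p = 2.41e-21). The knockdown values of CDKN2C lay within 1 CPM of one another and far below every control value. CDKN2D (p19) was low in both groups, with 6.46, 5.95, 6.65 and 7.89 CPM in control and 3.95, 3.89, 4.69 and 3.52 CPM in knockdown (log2 fold change -0.75, adjusted p = 1.86e-06). CDKN2A, which encodes p16 and, from another reading frame, p14ARF, rose slightly from 24.04, 27.01, 27.9 and 28.3 CPM to 31.9, 30.03, 33.9 and 32.2 CPM (log2 fold change 0.25, SE 0.0643, adjusted p = 0.000284). Counts per gene do not separate its 2 products. CDKN2A and CDKN2B lie 7.60 kb apart on chromosome 9, where the 50 nearest tested genes had medians of -0.54 and -0.50. Relative to these neighbours the log2 fold change was 0.79 for CDKN2A and -1.62 for CDKN2B. CDKN2A also shares 341 bases of exon with CDKN2B-AS1 on the opposite strand. Per kilobase, CDKN2A made up 15.4% ± 0.612 of the INK4 level in control and 41.0% ± 1.43 in knockdown, and the INK4 sum was 0.450 times the control level.

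Both tested CIP/KIP inhibitors fell (37.7% of all genes did). CDKN1B (p27) had 64.8, 63.1, 57.2 and 58.4 CPM in control and 28.3, 26.996, 29.2 and 31.9 CPM in knockdown, a log2 fold change of -1.07 (SE 0.0664, adjusted p = 2.8e-15). Relative to neighbours CDKN1B stood at -0.79 and CDKN1A at -2.53. CDKN1A (p21) had 9.07, 7.85, 9.59 and 6.89 CPM in control and 1.91, 1.52, 1.58 and 2.04 CPM in knockdown (log2 fold change -2.24, SE 0.148, adjusted p = 7.5e-14). The control values of CDKN1A spread from 6.89 to 9.59 CPM, and the highest knockdown library was still at 2.04 CPM. CDKN1C (p57) had 1 to 4 counts in control and 8 to 13 counts in knockdown and did not pass the filter. CDKN1B supplied most of this group per kilobase, 88.6% ± 1.62 in control and 93.3% ± 0.734 in knockdown, and the sum of the 3 was 0.454 times the control level. CDKN3, a phosphatase that acts on CDKs rather than a binding inhibitor, rose from 23.9 ± 0.634 to 34.6 ± 2.72 CPM (log2 fold change 0.53, adjusted p = 4.94e-09).

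**Figure D3:**
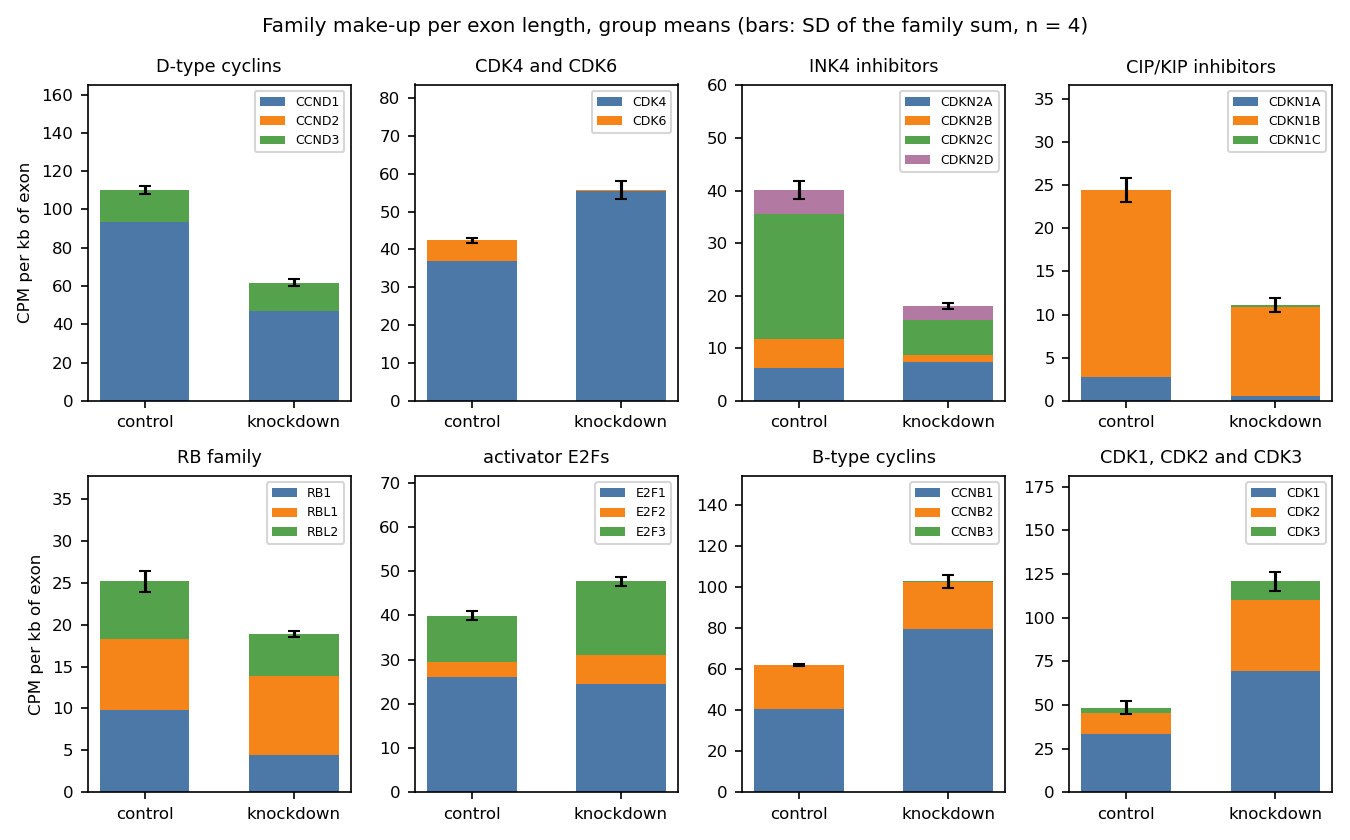
CPM per kilobase of exon (y axis, from 0) of each member, stacked by family, as means of 4 control and 4 FOXA1 knockdown libraries; error bars are the SD of the family sum. CDK6 shrinks from 13.0% to 0.364% of the CDK4 and CDK6 bar, and CDKN2A grows from 15.4% to 41.0% of a shorter INK4 bar.

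The 3 RB genes did not move together. RB1 had 66.8, 63.96, 61.1 and 62.2 CPM in control and 28.2, 30.8, 28.1 and 27.4 CPM in knockdown, a log2 fold change of -1.15 (SE 0.0458, adjusted p = 6.06e-17), while its 50 nearest tested genes on chromosome 13 had a median of -0.44 and the value relative to them was -0.71. RBL2 (p130), the member most linked to resting cells, fell from 50.1, 52.3, 47.2 and 52.5 CPM to 36.4, 35.7, 35.3 and 37.02 CPM (log2 fold change -0.49, adjusted p = 1.05e-09). It shares 610 bases of exon with AKTIP on the opposite strand. RBL1 (p107), itself a textbook E2F target, was higher, with 54.6, 47.8, 44.8 and 52.5 CPM in control and 57.5, 57.5, 56.3 and 54.7 CPM in knockdown (log2 fold change 0.18, SE 0.0667, adjusted p = 0.00382). The highest control library of RBL1 (54.6 CPM) almost touched the lowest knockdown library (54.7 CPM), and relative to its neighbours RBL1 stood at 0.29. RB1 made up 39.2% ± 1.16 of the RB family per kilobase in control and 23.5% ± 0.806 in knockdown, RBL1 33.3% ± 1.47 and 50.3% ± 0.557.

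Of the 3 activator E2Fs, 2 rose (39.4% of all genes did). E2F2 had 18.1, 17.9, 18.2 and 18.2 CPM in control and 33.5, 35.9, 33.1 and 38.2 CPM in knockdown (log2 fold change 0.96, SE 0.0486, adjusted p = 4.13e-14). E2F3 went from 53.6, 54.6, 52.7 and 54.5 CPM to 86.9, 88.1, 85.2 and 84.7 CPM (log2 fold change 0.68, SE 0.0176, adjusted p = 3.53e-14). Both rose in all knockdown libraries with narrow spread, and relative to neighbours E2F2 stood at 0.73 and E2F3 at 0.46. E2F1, the activator with the highest level per kilobase, had 64.8, 64.5, 69.996 and 63.05 CPM in control and 62.3, 63.9, 61.3 and 58.2 CPM in knockdown, values that overlapped (log2 fold change -0.09, adjusted p = 0.0615). It passed the threshold only when control replicate 4 or knockdown replicate 2 was left out (adjusted p = 0.0325 and 0.0404), and did not pass in the other 15 settings.

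The repressor and atypical E2Fs were mixed. E2F4, a main partner of RBL1 and RBL2, rose from 51.9 ± 1.06 to 64.1 ± 3.95 CPM (log2 fold change 0.30, adjusted p = 1.93e-06; 0.14 relative to its chromosomal neighbours). E2F5 was scarce, with 2.56, 1.997, 2.04 and 2.97 CPM in control and 5.78, 5.28, 4.38 and 5.27 CPM in knockdown (log2 fold change 1.11, adjusted p = 8.15e-08), and 969 bases of its exons overlap C8orf59 on the opposite strand, a gene with a mean of 589 counts against 84.6 for E2F5. For that reason the E2F5 value is uncertain. E2F6, which represses independently of RB proteins, had 25.4 ± 1.30 CPM in control and 25.8 ± 0.675 CPM in knockdown (log2 fold change 0.02, adjusted p = 0.754; -0.13 relative to neighbours, adjusted p = 0.0358). The atypical pair E2F7 and E2F8, which bind DNA without a DP partner and repress E2F targets, moved in opposite directions. E2F7 rose from 24.7, 25.5, 26.2 and 25.7 CPM to 37.7, 41.6, 37.2 and 37.3 CPM (log2 fold change 0.59, adjusted p = 1.16e-10; 0.29 relative to its neighbours), and E2F8 fell from 22.1, 23.3, 24.03 and 24.4 CPM to 12.8, 13.7, 13.2 and 14.4 CPM (log2 fold change -0.80, adjusted p = 1.47e-11; -0.48 relative to its neighbours). Their summed level per kilobase was 0.964 times the control level and overlapped between groups, while the E2F7 part went from 41.7% ± 0.608 to 65.1% ± 1.61.

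Since several of these genes are themselves E2F targets, promoters were read for E2F words. RefSeq entries (GRCh38.p14, 250 bases before to 50 after each start) matched 58 of the 65 genes with 82 windows, and CCND1, CCND2, CCNE2, CDK2, CDKN1C, E2F5 and E2F8 had no entry. The words searched on both strands were TTCCCGC with its variants TTGGCGC as well as TTGCCGC or else TTCGCGC for E2F, TTTGAA for the cell cycle homology region (CHR) of genes active in mitosis, CCAAT for the box of that name, and both TGTTTAC and its variant TATTTAC for forkhead factors. No word contains another. An E2F word was present in 20.7% of the family's windows and in 13.0% of all 35116 windows, a CHR word in 12.2% and 15.2%, a CCAAT box in 39.0% and 34.6%, and a forkhead word in 4.88% and 5.97%. By gene, 8 of 24 that rose, 3 of 20 that fell and 4 of 11 that did not pass had an E2F word in some window. With CCNI2, which was not tested, 16 of the 58 matched genes (27.6%) had such a word, beside 15.3% of 27305 genes. A match is a string of letters and not a shown binding site.

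The upstream sequences of RBL1, E2F2, E2F3 and CDK1, which rose, are printed beside that of E2F1, which did not pass, and those of CDK6 and CDKN2B, which fell. They show how the E2F words (and CHR and CCAAT words) stand in a short stretch close to the start; all matches to these words on either strand are in capitals. Each runs 5′ to 3′ on the gene's strand and ends at the base before the RefSeq start, except that of E2F1, which ends 20 bases before it, and that of CDKN2B, which ends 59 bases before it, where an annotated exon of the gene begins.
CDK1, chr10:60778131-60778330, plus strand: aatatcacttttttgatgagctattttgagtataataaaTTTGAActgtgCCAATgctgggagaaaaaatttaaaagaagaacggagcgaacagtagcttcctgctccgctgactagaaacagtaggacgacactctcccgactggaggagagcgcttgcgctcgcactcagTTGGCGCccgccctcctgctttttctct
E2F1, chr20:33686405-33686585, minus strand: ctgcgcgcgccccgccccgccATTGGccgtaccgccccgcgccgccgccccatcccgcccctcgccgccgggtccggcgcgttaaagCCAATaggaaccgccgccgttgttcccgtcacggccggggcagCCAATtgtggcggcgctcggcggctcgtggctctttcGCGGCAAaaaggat
E2F2, chr1:23531234-23531433, minus strand: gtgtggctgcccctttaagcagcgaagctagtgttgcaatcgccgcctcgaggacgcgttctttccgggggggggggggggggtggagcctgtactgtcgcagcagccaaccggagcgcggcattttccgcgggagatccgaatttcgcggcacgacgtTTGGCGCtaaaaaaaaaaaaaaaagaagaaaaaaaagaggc
E2F3, chr6:20401679-20401878, plus strand: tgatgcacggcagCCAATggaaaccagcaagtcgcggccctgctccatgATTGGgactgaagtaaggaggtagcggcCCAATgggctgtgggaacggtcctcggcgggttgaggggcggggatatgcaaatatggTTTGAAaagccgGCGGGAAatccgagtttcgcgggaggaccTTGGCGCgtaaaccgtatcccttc
RBL1, chr20:37095998-37096197, minus strand: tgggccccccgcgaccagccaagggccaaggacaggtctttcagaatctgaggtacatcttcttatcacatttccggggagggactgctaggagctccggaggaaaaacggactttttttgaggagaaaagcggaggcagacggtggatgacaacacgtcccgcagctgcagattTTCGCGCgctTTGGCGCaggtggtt
CDK6, chr7:92833960-92834159, minus strand: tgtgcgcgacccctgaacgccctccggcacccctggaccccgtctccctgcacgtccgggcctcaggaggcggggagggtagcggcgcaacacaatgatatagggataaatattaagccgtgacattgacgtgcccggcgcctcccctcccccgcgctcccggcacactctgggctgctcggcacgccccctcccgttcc
CDKN2B, chr9:22009364-22009505, minus strand: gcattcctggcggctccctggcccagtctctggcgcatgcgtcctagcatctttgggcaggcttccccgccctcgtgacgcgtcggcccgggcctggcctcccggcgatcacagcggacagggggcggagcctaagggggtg
E2F3 and RBL1 carry 2 E2F words each in the printed stretch, CDK1, E2F1 and E2F2 carry 1 each, and CDK6 and CDKN2B carry none of the words. Just past the printed stretches E2F1 and CDK1 each have a further E2F word, so that in the full window E2F1, CDK1, E2F3 and RBL1 have 2 each. In the printed stretches CDK1 and E2F3 also have 1 CHR word each, CDK1 has 1 CCAAT word, and E2F1 and E2F3 have 3 CCAAT words each. A forkhead word of CDK1 begins at position -208, outside its printed stretch. E2F words thus stand upstream of E2F1 as well as upstream of genes that rose. They also stand upstream of CDKN2C, CDK11B and CDK19, which fell and are not printed. With 8 of 24 genes that rose and 3 of 20 that fell having such a word, most genes of either group had none. The printed stretches therefore do not represent these groups. CDK1, E2F3 and CDK6 have 2 RefSeq starts each. The one shown is the inner one for CDK6 and the outer one for CDK1 and E2F3.

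CDK2, the main kinase of entry into DNA replication, rose to more than 3 times its control level. It had 48.8, 47.5, 49.2 and 48.1 CPM in control and 159, 159, 160.4 and 156 CPM in knockdown, values with almost no spread within a group. The log2 fold change was 1.71 (SE 0.0142, adjusted p = 3.18e-23), and the 50 nearest tested genes of CDK2, at chr12:55966769-55972784, had a median of 0.29. CDK2 lies 1.77 Mb from CDK4 on chromosome 12. Of its partners, CCNE1 (cyclin E1) rose from 27.98, 29.2, 29.6 and 30.3 CPM to 46.03, 43.7, 44.8 and 45.2 CPM (log2 fold change 0.62, SE 0.0288, adjusted p = 8.89e-12), or by 0.25 relative to its neighbours. CCNE2 (cyclin E2) had 9.98, 8.44, 7.03 and 11.2 CPM in control and 7.69, 7.33, 7.69 and 7.22 CPM in knockdown. These overlapped, because control replicate 3 lay below every knockdown library, and the call (log2 fold change -0.29, SE 0.147, adjusted p = 0.0219) was lost in 7 of 17 other settings, among them those without control replicate 1 (adjusted p = 0.0630), control replicate 4 (0.112), knockdown replicate 2 (0.0617) or knockdown replicate 4 (0.0621). The call held without control replicate 3, and over the 17 settings the log2 fold change of CCNE2 ran from -0.40 to -0.13. CCNE2 also shares 1629 bases of exon with INTS8 on the opposite strand. CCNA2 (cyclin A2), which binds CDK2 and CDK1, rose from 107, 114, 108 and 114 CPM to 145, 138, 154 and 147 CPM (log2 fold change 0.39, adjusted p = 1.82e-09; 0.60 relative to neighbours). CCNA1, the germ cell form, was scarce at 3.20 ± 0.487 and 2.70 ± 0.203 CPM and did not pass (adjusted p = 0.123).

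CDK3, a close relative of CDK2, rose from 5.27, 5.49, 5.27 and 4.96 CPM to 17.9, 18.02, 18.6 and 21.8 CPM (log2 fold change 1.86, SE 0.0742, adjusted p = 1.74e-16). It lies on chromosome 17 and shares 1644 bases of exon on the same strand with the read-through gene TEN1-CDK3, which had a mean of 280.1 counts against 270.0 for CDK3, so how reads were divided between the 2 is not known.

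For mitosis, CDK1 and all 3 B-type cyclins rose (39.4% of all genes did). CDK1 had 138, 134, 108 and 143 CPM in control and 291, 260.5, 293 and 246 CPM in knockdown, and control replicate 3 was the lowest. The log2 fold change was 1.06 (SE 0.11, adjusted p = 5.83e-05). The 50 nearest tested genes of CDK1, at chr10:60778331-60794852, had a median of 0.64, and relative to them its log2 fold change was 0.42 (adjusted p = 0.00911). CCNB1 (cyclin B1) rose from 104, 106, 103 and 106 CPM to 203, 196, 208 and 207 CPM (log2 fold change 0.96, SE 0.0223, adjusted p = 1.83e-18), or by 0.74 relative to its neighbours. CCNB2 (cyclin B2) differed little, with 61.04, 59.1, 57.9 and 58.3 CPM in control and 63.2, 61.9, 63.96 and 68.1 CPM in knockdown. Its log2 fold change of 0.12 (adjusted p = 0.0131) lost the call without knockdown replicate 4 (0.09, adjusted p = 0.0659) and was 0.38 relative to neighbours. CCNB3, mainly known from germ cells, had only 10 to 42 counts and a log2 fold change of 1.31 (adjusted p = 1.06e-05). Together CDK1, CDK2 and CDK3 stood per kilobase at 2.49 times the control level, and the B-type cyclins at 1.66 times, with CCNB1 going from 65.8% ± 0.581 to 77.4% ± 0.5003 of the B-type sum.

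Of the 9 tested kinases of transcription, 6 were called lower (37.7% of all genes were), 2 higher (39.4% of all genes) and 1 neither. Of the 6, CDK11B and CDK19 were not called in every setting, as given below. CDK7, the kinase of TFIIH and of the CDK-activating complex, was the one with a change of at least 2-fold. It had 31.6, 32.2, 30.8 and 35.1 CPM in control and 71.5, 69.8, 69.97 and 74.3 CPM in knockdown (log2 fold change 1.14, SE 0.0463, adjusted p = 4.03e-17). CDK7 and CCNB1 lie 56.6 kb apart on chromosome 5 and had log2 fold changes of 1.14 and 0.96, beside 0.22 for the median of 50 nearest tested genes. CCNH, the cyclin of CDK7, did not move with it: 17.7, 18.5, 15.2 and 18.7 CPM in control and 13.05, 11.2, 15.5 and 13.7 CPM in knockdown, a log2 fold change of -0.40 (adjusted p = 0.000412), with control replicate 3 (15.2 CPM) below knockdown replicate 3 (15.5 CPM). CCNH shares 771 bases of exon with RASA1 on the opposite strand, a gene with more counts than CCNH, and relative to its neighbours its log2 fold change was -0.88.

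CDK12, a kinase of elongation needed for long DNA repair genes, stood in control beside CCND1 at the top of the family per kilobase of exon (95.4 ± 1.902 and 93.6 ± 1.05 CPM per kilobase, SD). It had 1219, 1248, 1188 and 1217 CPM in control and 744, 792, 749.8 and 766 CPM in knockdown (log2 fold change -0.67, SE 0.0247, adjusted p = 4.51e-16). CDK12 lies 122.99 kb from ERBB2, within the region often amplified with it in HER2-positive cancers. ERBB2 itself had a log2 fold change of -2.45, the 50 nearest tested genes of CDK12 had a median of -0.35, and relative to these CDK12 stood at -0.33. CDK13, its paralog on chromosome 7, fell from 166 ± 3.69 to 101 ± 2.79 CPM (log2 fold change -0.71; -0.42 relative to neighbours). CCNK, the cyclin of both, had 32.96 ± 1.66 CPM in control and 32.5 ± 0.737 CPM in knockdown (log2 fold change -0.02, adjusted p = 0.708), and 4893 bases of its exons overlap CCDC85C on the opposite strand.

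CDK9, the kinase that releases paused polymerase, fell from 45.4, 48.8, 49.7 and 43.7 CPM to 28.3, 28.6, 28.5 and 32.6 CPM (log2 fold change -0.67, adjusted p = 4.7e-11; -0.25 relative to neighbours). Of its cyclins, CCNT1 rose from 65.4 ± 3.51 to 81.1 ± 2.82 CPM (log2 fold change 0.31, adjusted p = 7.16e-07) and CCNT2 did not pass (-0.08, adjusted p = 0.319). Without control replicate 3, CCNT2 did pass, at -0.14 (adjusted p = 0.0286), as it did relative to its neighbours, at -0.42 (adjusted p = 2.03e-05). The mediator kinases CDK8 (-0.63, -0.22 relative to neighbours) and CDK19 (-0.19, -0.34 relative to neighbours) fell, whereas their cyclin CCNC rose (0.39). The CDK19 call was lost with scaling by library size only (adjusted p = 0.0885). CDK11A (0.16, 0.40 relative to neighbours) and CDK11B (-0.12) are near-identical neighbours 43.7 kb apart on chromosome 1, between which reads can be split wrongly, so their opposite small changes are uncertain. The CDK11B call was lost under 2 scalings (adjusted p = 0.137 with upper-quartile and 0.341 with library size only) and its sign turned relative to its neighbours (0.08, adjusted p = 0.0450). CCNL2 fell (-0.18, but 0.08 relative to its neighbours, adjusted p = 0.0446), while CCNL1 (-0.09) and CDK10 (-0.06) did not pass. Relative to its neighbours CDK10 passed, at -0.26 (adjusted p = 0.000902). CCNL1 passed without control replicate 3, at -0.18 (adjusted p = 0.0397).

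Among CDK5, its relatives and CDK20, CDK14 showed the largest rise of the family. CDK14, a kinase that pairs with cyclin Y at the membrane in Wnt signalling, had 0.275, 0.182, 0.38 and 0.259 CPM in control and 8.16, 7.78, 7.54 and 7.45 CPM in knockdown. In counts this was 4 to 8 per control library and 148 to 192 per knockdown library, so the control level is known only coarsely. CDK14 passed the filter on low counts through the knockdown libraries alone, the group where it was high. The log2 fold change was 4.80 (SE 0.203, adjusted p = 1.83e-18). CDK14 lies at chr7:90466424-91210590, 1.39 Mb from CDK6 on the same chromosome, so that the largest rise and the largest fall of the family stood close together. The 50 nearest tested genes had medians of -0.22 around CDK14 and -0.19 around CDK6. CDK14 shares 201 bases of exon with CLDN12 on the same strand, a gene with a mean of 547.9 counts. CCNY, cyclin Y, had 73.3 ± 2.02 CPM in control and 72.7 ± 2.25 CPM in knockdown, a log2 fold change of -0.01 (adjusted p = 0.789), while its neighbours on chromosome 10 had a median of 0.47, and relative to them it stood at -0.49 (adjusted p = 3.61e-11).

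CDK18, another kinase of this group, rose from 4.26, 3.50, 4.23 and 4.09 CPM to 10.8, 11.2, 9.88 and 12.03 CPM (log2 fold change 1.45, SE 0.0886, adjusted p = 5.98e-13). CDK5, best known from neurons, fell from 21.1, 19.97, 20.7 and 19.8 CPM to 8.97, 9.05, 10.8 and 10.2 CPM (log2 fold change -1.07, SE 0.0694, adjusted p = 5.06e-13). Its value is uncertain, since 331 bases of its exons overlap SLC4A2 on the opposite strand, a gene with a mean of 7143 counts against 332.5 for CDK5. CDK16 rose (0.25; 0.13 relative to neighbours), CDK17 fell (-0.64), and CDK20 did not pass (-0.19, adjusted p = 0.12) except without control replicate 4 (-0.26, adjusted p = 0.0482).

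Of the remaining cyclins, CCNO and CCNG1 rose by more than 2-fold. CCNG1 (cyclin G1) had 34.7, 34.5, 31.4 and 33.96 CPM in control and 80.4, 75.4, 81.5 and 78.5 CPM in knockdown (log2 fold change 1.23, SE 0.0412, adjusted p = 3.56e-18). CCNO, which acts in the formation of multiciliated cells, was scarce, with 1.37, 0.772, 1.23 and 1.21 CPM in control and 5.48, 4.71, 4.33 and 5.51 CPM in knockdown (log2 fold change 2.12, adjusted p = 8.75e-12). CCNI fell from 257 ± 4.42 to 197 ± 7.22 CPM (log2 fold change -0.38; -0.23 relative to neighbours). CCNG2, which is 81.1 kb from CCNI (-0.10, adjusted p = 0.0773), and CCNF (0.07, adjusted p = 0.167) did not pass. CCNF passed without control replicate 3 (0.10, adjusted p = 0.0211), with upper-quartile scaling (0.13), with library size only (0.15) and relative to its neighbours (0.44). CCNG2 passed without control replicate 1 (-0.12, adjusted p = 0.0379). The 5 genes below the filter were CCND2 and CDKN1C, given above, CCNI2 with 0 to 1 counts in control and 9 to 13 in knockdown, CCNJ with 7 to 17 and 0 to 5, and CDK15 with 0 to 3 and 0. CCNI2 shares 1150 bases of exon with SEPT8 on the opposite strand, a gene with a mean of 1619.75 counts against 5.25 for CCNI2. Its counts are therefore uncertain. CCNJ passed the filter and was called lower when control replicate 3 (log2 fold change -2.83, adjusted p = 1.54e-05) or any 1 knockdown library was left out (adjusted p = 0.000454 at the highest). All knockdown counts of CCNJ lay below the filter's minimum of 10. CCNJ therefore entered these fits through control libraries alone, the group where it was high, and its calls there are not independent of the filter. A total of 3 counts corresponded to 0.123 to 0.153 CPM, so changes below that level were not detectable at this depth.

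**Figure D4:**
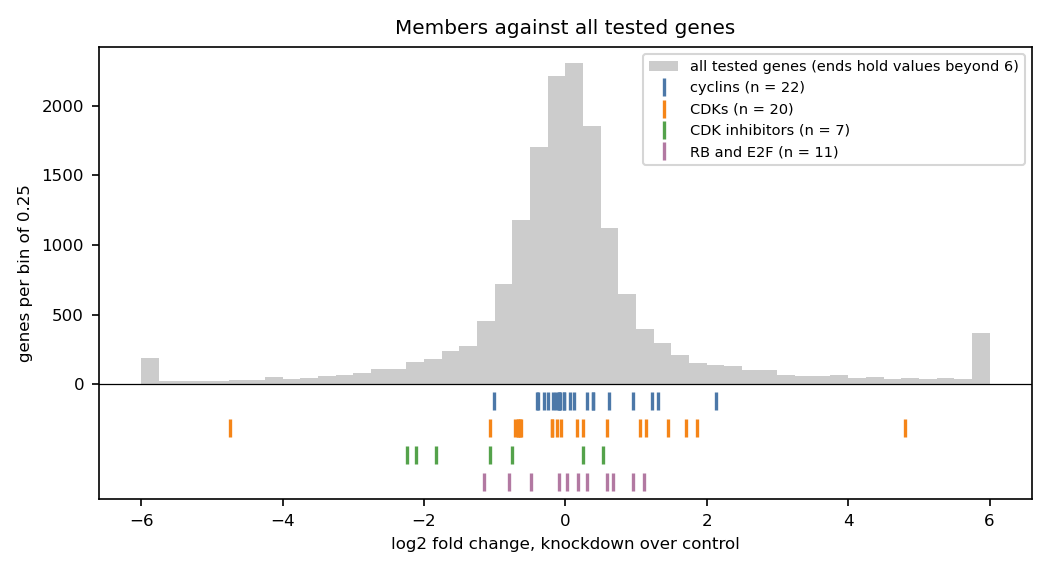
Number of genes (y axis, per bin of 0.25) by log2 fold change (FOXA1 knockdown over control, x axis) for all 16430 tested genes (grey bars), with the 60 tested genes of the family as coloured ticks below. Most ticks lie near 0 under the bulk of the bars, with CDK6 at -4.75 and CDK14 at 4.80 farthest from 0.

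Other genes of the pathway were read from 2 lists chosen by known role, with earlier results of these data known. Of 30 regulators of CDKs, RB and E2F complexes, 29 were tested and 82.8% were called, beside 77.1% of all genes. Of these 29, 16 rose (39.4% of all genes did) and 8 fell (37.7% of all genes), with a median log2 fold change of 0.27. A change of at least 2-fold was called for 5 of the 29 (17.2%, against 28.3% of all genes). The largest rise was that of TFDP2, a DP partner with which E2Fs bind DNA, from 27.6, 29.1, 26.7 and 27.9 CPM to 283, 308, 292 and 309.7 CPM (log2 fold change 3.42, SE 0.0408, adjusted p = 5.99e-28). Its paralog TFDP1 had a log2 fold change of -0.61 and its neighbours on chromosome 13 a median of -0.53, so that relative to them TFDP1 stood at -0.08, beside 3.35 for TFDP2. The largest fall was that of HEXIM1, which holds CDK9 inactive, from 138, 129, 133 and 128 CPM to 48.2, 46.8, 47.3 and 48.4 CPM (log2 fold change -1.47, SE 0.0268, adjusted p = 3.56e-21). Changes of at least 2-fold were also called for SKP2, the ubiquitin ligase subunit that marks p27 (1.64), CDC25C, a phosphatase that activates CDK1 (1.62), and LIN37 of the DREAM complex (1.01), named, like TFDP1, after their values were seen.

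Of 18 E2F target genes of DNA replication, all were tested, 13 rose (39.4% of all genes did) and 5 fell (37.7% of all genes), with a median of 0.38 beside 0.02 over all genes. A change of at least 2-fold was called for 2 of the 18 (11.1%, against 28.3% of all genes), TK1 and UHRF1. POLA1, a subunit of DNA polymerase alpha, rose most, from 44.8 ± 2.25 to 82.05 ± 2.18 CPM (log2 fold change 0.87, adjusted p = 2.36e-15). TK1, thymidine kinase, fell most, from 345, 329, 368 and 333 CPM to 108, 102, 113 and 107 CPM (log2 fold change -1.68, adjusted p = 2.93e-22). All 6 MCM helicase genes were among those that rose, by 0.25 to 0.69 on the log2 scale, and RRM1, RRM2, CDC6 and UHRF1 fell with TK1. Of these 5, CDC6 and RRM1 lay in regions that fell, and relative to their neighbours they stood above 0, at 0.60 and 0.39, while RRM2, UHRF1 and TK1 stayed below 0, at -0.81, -0.77 and -1.28. The small fall of CDC6 (-0.10) was also not called with upper-quartile scaling (adjusted p = 0.237) or with library size only (adjusted p = 0.578).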

How the data were processed

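RNA from 8 SKBR3 libraries (4 control, 4 FOXA1 knockdown) was extracted with Trizol and sequenced on a NextSeq instrument, per the labels' protocols. The authors deposited raw counts per gene as whole numbers in 1 table under Ensembl identifiers. The submitters' processing notes name Salmon 1.9 and hg38 without their role; if Salmon made the counts, they are rounded estimates. Annotation and strand are not given in the sources used here. Groups came from the sample titles, and columns were matched by name.

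Genes were kept by filterByExpr (minimum 10 counts, total 15), which left 16430 of 30434, and tested with edgeR 4.0.16 in R 4.3.3 (TMM scaling, robust quasi-likelihood fit, group as the only term, Benjamini-Hochberg adjustment over all tested genes, threshold 0.05). The biological coefficient of variation was 4.56%. Fitted fold changes use a prior count of 0.125. CPM uses TMM-scaled totals, and SEs come from the spread of log2 CPM with 0.5 added to each count. Exact two-sided permutation tests used the 70 divisions into 4 and 4. Levels per kilobase divide CPM by the union of exons in GENCODE 29, which matched 29358 identifiers. Shares, sums, motif counts and lists carry no test, and floors (3 counts per library) cover counting error only.

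Members and lists were chosen with earlier results of these data known. Another list is not reported here. Values were to be given for FOXA1, every member changed at least 2-fold, the core G1, S and M phase genes whatever their change, and in each list reported the largest rise and fall with a mean of at least 50 counts. Alternatives were scaling by RLE, by upper quartile or by library size alone, no filter, a mean of 50 counts, DESeq2 1.42.0, limma 3.58.1 (voom), the replicate number as a block, each library left out, a neighbour offset (median log2 fold change of the 50 nearest tested genes) and stricter thresholds. The neighbour offset entered the fit as a fixed value, so adjusted p-values from that fit carry no error of the neighbour median. The fits were checked on simulated data in which most genes were unchanged. Most genes were called in these libraries, so that check does not cover the scaling here.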

Additional observations from a re-analysis of the deposited data

Results flagged for a closer look

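Each group's 4 values were checked for a library far from the other 3 by Dixon's gap ratio, at its 95% critical value. Of 120 groups of values (60 genes, 2 groups), 6 were beyond it, and chance alone gives about 6. In knockdown, E2F7 was high in replicate 2 at 41.58 CPM against 37.18 to 37.66 in the others, and CDKN3 was high in replicate 1 at 38.64 CPM against 32.95 to 33.54. CCNK was high in knockdown replicate 1 at 33.58 CPM (others 32.04 to 32.16), and CDK9 in knockdown replicate 4 at 32.62 CPM (others 28.27 to 28.59). CDK11B was low in control replicate 4 at 83.6 CPM (others 86.96 to 87.34) and in knockdown replicate 3 at 77.82 CPM (others 79.61 to 79.72). The 6 values came from 4 different knockdown libraries and 1 control library, and their causes were not tested. The calls of E2F7, CDKN3, CDK9 and CDK11B held with any 1 library left out, and CCNK was called in none of these fits.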

How the results depend on the processing

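Over 1019 comparisons of the 60 tested genes with 17 other settings, 973 kept direction and call, and 43 genes kept both in every setting in which they were tested. RLE scaling, DESeq2, limma voom and the replicate block called the same 26 higher and 23 lower genes. Signs turned for genes with small changes in the main fit, the largest that of CCNA1 at -0.24, and the cause was not tested. With upper-quartile scaling they turned for CCNK (0.038), CDK10 (0.0011) and CCNY (0.047). With library size only they turned for CCNK (0.063), CCNT2 (0.0084), CDK10 (0.026) and CCNY (0.072), and with a mean of 50 counts for CCNY (0.0020). The neighbour offset turned E2F1 (0.066), E2F6 (-0.127, adjusted p = 0.0358), CCNA1 (0.285), CCNL1 (0.231), CCNL2 (0.083), CDK11B (0.085), CDK20 (0.082) and CCNG2 (0.074). Of these, 2 went from called lower to called higher, CCNL2 (-0.18 in the main fit) and CDK11B (-0.12). Leaving out 1 library gave E2F6 -0.0036 to 0.054, CCNK -0.045 to 0.013 and CCNY -0.031 to 0.0076. The median over all genes moved from 0.02 to 0.08 with upper-quartile scaling and to 0.10 with library size only. Requiring 2-fold as well left 10 higher and 8 lower members, 5 CDK regulators, 2 E2F targets and 4654 of all genes, by construction. Without the filter 29 rose and 25 fell, since the 5 scarce genes were added. Relative to neighbours 29 rose and 24 fell, with the neighbour median treated as exact.

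Replicate numbers are shared by the groups, and same-numbered libraries deviated together with r of 0.0877, 0.168, -0.0355 and 0.0661. Pairs with different numbers had r of -0.119 to 0.074. The labels do not say what the number marks, and r values this small cannot settle whether same-numbered libraries share more than it. Control library 2 correlated best with its own number, as did control 1 and 4, but control 3 did not. With the replicate block 12453 genes were called in place of 12675, and among the members 26 higher and 23 lower. Depth limits CCND2, CDKN1C, CCNI2, CCNJ and CDK15, at 17 or fewer counts per library, and leaves CDK14 and CCNB3 in control coarse.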
